A study of Mus musculus with 3 samples.

Results

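The genes described here are the mouse histone genes of the replication clusters, taken as every gene of the expression table whose name starts with Hist1h, Hist2h, Hist3h or Hist4h and that reached at least 20 unique molecular identifiers (UMIs, one for each captured RNA molecule) over the 3 libraries. The names gave 67 genes of the 32285 in the table, and 60 of them reached the minimum. The other 7, with 0 to 18 UMIs each, were only counted. Among the 60 members, 6 code for the linker histone H1, 16 for H2A, 16 for H2B, 10 for H3 and 12 for H4. By the GENCODE M21 annotation of GRCm38, 49 lie in the Hist1 cluster on chromosome 13, 8 in the Hist2 cluster on chromosome 3, 2 in the Hist3 cluster on chromosome 11 and 1, Hist4h4, on chromosome 6.

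As background, H2A, H2B, H3 and H4 are the core histones round which DNA is wound into nucleosomes, and H1 binds the DNA between nucleosomes. Most genes of these clusters are replication-dependent: they are transcribed in S phase, when newly copied DNA has to be packed, and their mRNAs end in a stem-loop bound by SLBP in place of a poly(A) tail. Cells that leave the cell cycle are known to make some of these genes as polyadenylated mRNAs with longer ends. Germinal center B cells and plasmablasts are the dividing cells of an antibody response, the former in the follicle and the latter on the way to antibody-secreting plasma cells.

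Spleen B cells came from female BXD2 mice, a recombinant inbred strain with spontaneous lupus-like disease, labelled as wild type. Every mouse received R848, an agonist of Toll-like receptor 7, by intraperitoneal injection at 40 µg per 20 g of body weight, and the course was repeated after 2 days. In the IL-4+R848 group, 5 µg of IL-4 in a long-acting complex with 25 µg of an antibody to IL-4 was given 2 hours before R848; the R848 group received 25 µg of that antibody alone. B cells of both groups carried hashtag antibodies and were mixed, so each of the 3 single-cell 5′ libraries (sets 1 to 3) holds both treatments; 3 mice per treatment are described, the labels do not tie a mouse to a set, and p-values measure the spread between sets only.

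Of 40130 barcodes, 34847 were kept as B cells with 1 hashtag. Cells with at least 3 UMIs of Mki67 and Top2a, genes of dividing cells, were called dividing and split by marker genes into 1091 germinal center cells, 734 plasmablasts and 930 other cycling B cells; 29054 cells with no such UMI were called resting, and 3038 in between were left out. No histone gene entered these gates. Of the antibody tags, GL7, CD138 and IgD differed along the same lines. Median GL7 counts were 412 in dividing germinal center cells against 11 in dividing plasmablasts and 16 in other cycling cells. Median CD138 counts were 278 in dividing plasmablasts against 5 in dividing germinal center cells and 8 in other cycling cells. Median IgD counts were 178 in other cycling cells against 19 in dividing germinal center cells and 22 in dividing plasmablasts. CD95 hardly separated the classes, with medians of 24 in dividing germinal center cells, 22 in dividing plasmablasts and 19 in other cycling cells. The classes differ in depth, with median gene UMIs per cell of 17368 in dividing germinal center cells, 26051.5 in dividing plasmablasts, 12040.5 in other cycling and 5048 in resting cells. Libraries held 96866964 to 107244246 gene UMIs, and pairs of libraries shared 219 to 289 barcode sequences. T cell, NK cell, myeloid, erythroid and platelet lists summed to at most 15.5 CPM (counts scaled to a common total) in any class. Cells of other lineages had been removed by UMIs of these lists, so the low sums follow from that filter and do not test purity. At least 1 such UMI remained in 33.5% of dividing plasmablasts and 19.1% of dividing germinal center cells. The shares were 17.5% of other cycling and 6.06% of resting cells. B cell precursor markers were present in other cycling cells, with Igll1 at 52.0 CPM and Vpreb1 at 30.1 CPM there, against 10.1 and 7.11 CPM in resting and 2.41 and 2.08 CPM in dividing germinal center cells; the whole precursor list of 6 genes, mostly Vpreb3, summed to 516 CPM in other cycling, 362 CPM in resting and 314 CPM in dividing germinal center cells and to 102 CPM in dividing plasmablasts, and its part in the results for other cycling cells was not tested.

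The stem-loop that marks these mRNAs was searched in the annotated coding transcripts as 16 bases with 6 paired bases on each side of a loop that starts with TT. It was found in 72 of 58797 coding transcripts of all genes (0.122%). In 17 members the annotated transcripts end at the stem-loop, 24 have a stem-loop and an annotated end beyond it, 7 have a longer end with no stem-loop found, and 12 have no 3′ end annotated past the coding sequence. The commonest form, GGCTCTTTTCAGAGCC, was read in 24 members. The 4 sites below are those of the most counted H1, H2A, H3 and H4 members, each with the stem-loop in capitals and 5 bases on each side.
Hist1h1e: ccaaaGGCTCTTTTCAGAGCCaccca
Hist1h2ae: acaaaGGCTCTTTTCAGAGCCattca
Hist1h3e: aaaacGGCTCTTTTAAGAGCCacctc
Hist1h4d: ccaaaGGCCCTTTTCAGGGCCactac
In all 4 the arms of the stem can pair base for base, while the loop of Hist1h3e and the stem of Hist1h4d differ in letters from the commonest form. All 4 genes are also annotated with an end past the stem-loop, by up to 1153 bases in Hist1h1e, 151 bases in Hist1h2ae, 369 bases in Hist1h3e and 770 bases in Hist1h4d. They lie on chromosome 13, at chr13:23620629-23622558 (minus strand), chr13:23570517-23571220 (minus), chr13:23561534-23562369 (minus) and chr13:23581598-23582735 (plus) of GRCm38.

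Promoters, from 250 bases before to 50 bases after the start, were matched for 54 members (RefSeq, GRCm38.p6). The 3 motifs searched on both strands were the TATA box, TATAAA, the box CCAAT, and the octamer read by POU factors, ATTTGCAT. None of the 3 contains another. TATAAA was present in 30 of 54 promoters, against 14.2% of 27025 promoters of all genes, CCAAT in 46 of 54 against 37.9%, and the octamer in 11 of 54 against 1.75%. CCAAT was found in every matched H1, H2A, H2B and H3 promoter and in 3 of 11 of H4, and the octamer in 6 of 16 H2A and 5 of 14 H2B promoters and in none of the other types. The sequences below, with motifs in capitals, are the window shared by Hist1h2bg and its divergent neighbour Hist1h2ae (chr13:23571150-23571449, plus strand) and those of the H1 genes with the largest and the smallest rise in dividing cells, Hist1h1a (chr13:23763418-23763717, plus) and Hist1h1c (chr13:23738557-23738856, plus).
Hist1h2bg: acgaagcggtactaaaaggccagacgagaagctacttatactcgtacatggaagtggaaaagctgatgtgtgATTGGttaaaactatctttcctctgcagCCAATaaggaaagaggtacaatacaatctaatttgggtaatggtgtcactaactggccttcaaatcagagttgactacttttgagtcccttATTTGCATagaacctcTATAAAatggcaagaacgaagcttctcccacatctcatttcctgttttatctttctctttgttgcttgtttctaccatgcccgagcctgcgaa
Hist1h1a: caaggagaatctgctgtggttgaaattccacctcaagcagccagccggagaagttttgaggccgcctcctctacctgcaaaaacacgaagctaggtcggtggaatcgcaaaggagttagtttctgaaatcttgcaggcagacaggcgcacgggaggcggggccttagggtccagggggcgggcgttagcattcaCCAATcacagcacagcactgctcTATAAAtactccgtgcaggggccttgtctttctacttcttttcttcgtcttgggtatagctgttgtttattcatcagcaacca
Hist1h1c: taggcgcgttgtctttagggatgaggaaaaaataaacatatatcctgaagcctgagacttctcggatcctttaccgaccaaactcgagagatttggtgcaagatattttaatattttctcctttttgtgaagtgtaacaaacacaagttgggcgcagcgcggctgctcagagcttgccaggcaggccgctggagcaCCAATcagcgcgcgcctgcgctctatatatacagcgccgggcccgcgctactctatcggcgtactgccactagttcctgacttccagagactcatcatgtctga
The Hist1h2bg window holds all 3 motifs, that of Hist1h1a a CCAAT and a TATAAA, and that of Hist1h1c a CCAAT only. A match is a description of the letters in the window and not a measured binding site.

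Histone genes of all 5 types were far more abundant in dividing than in resting B cells. Summed over the members, 36.3 to 48.2 of every 10000 gene UMIs in dividing germinal center cells, 30.8 to 37.8 in dividing plasmablasts, 32.2 to 47.5 in other cycling cells and 5.27 to 9.15 in resting cells were histone UMIs, over the 6 combinations of set and treatment. Every dividing sum lay above every resting sum. Within a class the cells were unequal: in dividing germinal center cells of set 1 10% of cells held 5 or fewer histone UMIs, the median cell 44.5 and the highest cell 641. A level in a sum of cells can be lower because fewer cells hold the RNA or because each holds less, and the sums do not tell these apart.

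Counts were summed by set, treatment and class and tested with edgeR's quasi-likelihood test, with p-values adjusted by the Benjamini-Hochberg method over all genes tested and called under 0.05. The filter on low counts kept 51 of the 60 members; since a member can pass it through the dividing sums alone, the counts below are descriptions of the 51. Against resting cells, 46 were higher and 1 lower in dividing germinal center cells (36.1% of 10534 genes were called higher there and 40.8% lower), 48 were higher and 1 lower in dividing plasmablasts (36.3% of all genes higher and 41.9% lower), and 48 were higher and none lower in other cycling cells (26.7% of all genes higher and 28.1% lower, and 48 members at an unadjusted p under 0.05). The median log2 fold change of the 51 was 2.52, 2.54 and 2.56, beside medians of -0.08, -0.09 and -0.05 over all genes. With no filter, all 60 members entered and 50, 52 and 52 were higher. All of the 46 and 48 calls in germinal center cells and plasmablasts had the same direction in 3 of 3 sets, as had 47 of the 48 in other cycling cells.

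Levels are given as CPM after TMM scaling, as the mean ± SD of the 3 sets with both treatments averaged within a set. A 5′ library counts a molecule once whatever its length, so the values are not divided by length. Levels of different genes also depend on how far each mRNA can be captured. Capture of mRNAs without a poly(A) tail was not measured, so levels and shares describe counted UMIs and not all histone mRNA. Reads of near-identical copies can be split or lost in counting: within H2A, H2B, H3 and H4 the median identity of coding sequences between members was 97.4%, 94.7%, 97.3% and 93.9%, and Hist1h2ao and Hist1h2ap are identical.

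**Figure D1:**
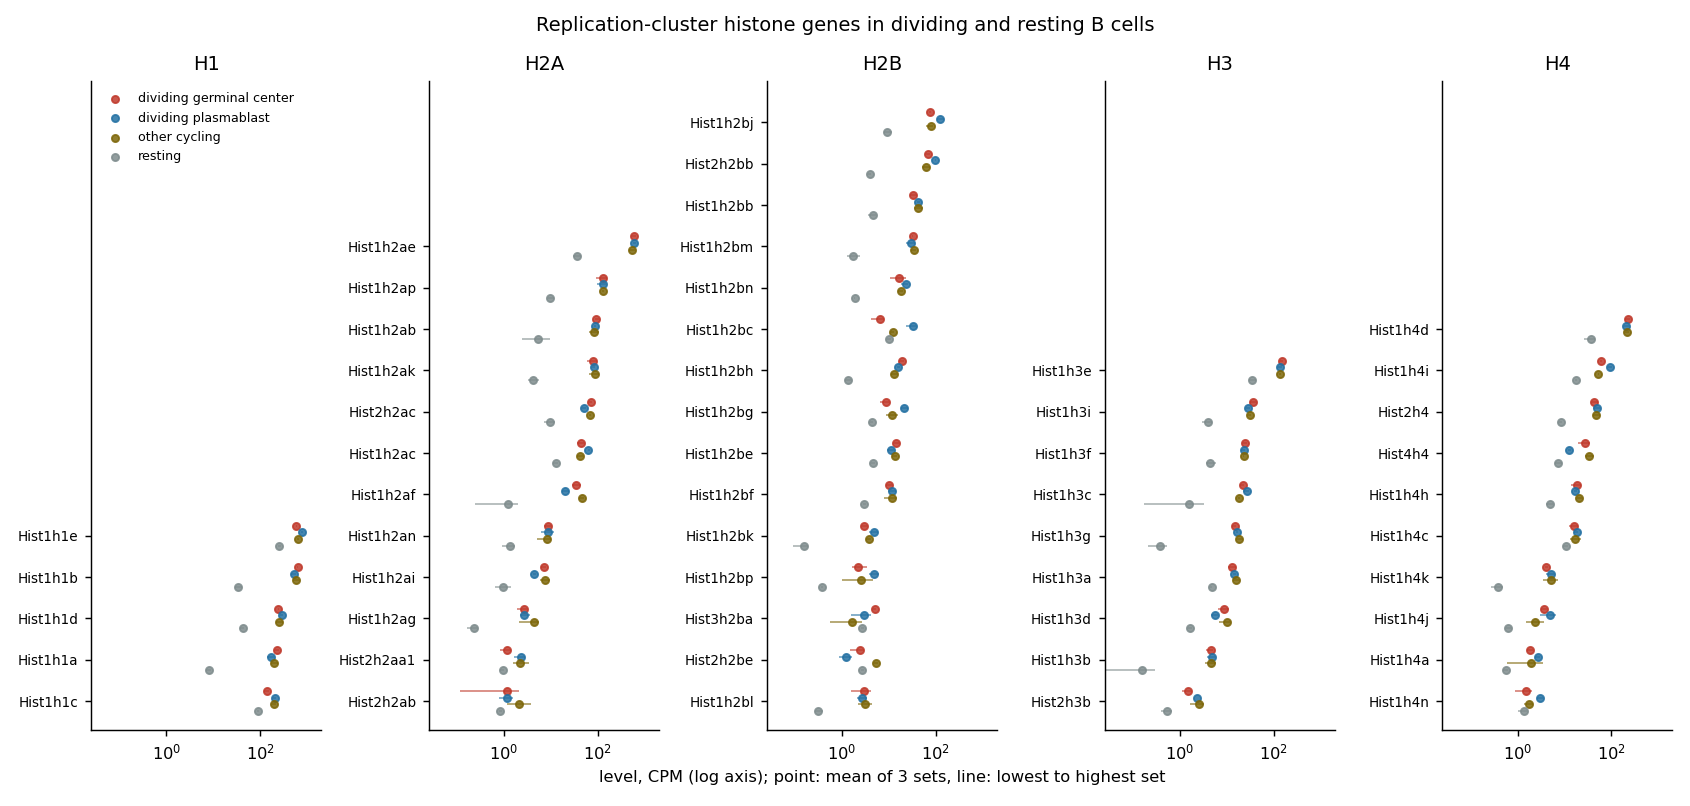
Level of each tested histone gene in CPM (log axis) by histone type, with 1 point for the mean of 3 sets in each cell class and a line from the lowest to the highest set. In nearly every row the grey point of resting cells lies to the left of the 3 dividing classes. The gap is narrow for Hist1h1c, Hist1h1e and Hist1h4c, while dividing classes lie on both sides of the grey point for Hist1h2bc, Hist2h2be and Hist3h2ba.

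Among the linker histones, Hist1h1b and Hist1h1a rose most. Hist1h1b stood at 640, 647 and 620 CPM in dividing germinal center cells of sets 1 to 3, at 537, 446 and 579 CPM in dividing plasmablasts, at 496, 532 and 677 CPM in other cycling cells and at 30.3, 40.6 and 28.5 CPM in resting cells. No dividing value came near the resting ones, and the log2 fold changes against resting were 4.30 ± 0.15 (SE), 4.0 ± 0.15 and 4.12 ± 0.15 (edgeR adjusted p = 9.8e-15, 2.0e-14 and 2.4e-14). Hist1h1a rose by 4.82 ± 0.18, 4.4 ± 0.17 and 4.63 ± 0.18 on the log2 scale, from 7.97 ± 0.847 CPM in resting cells. Hist1h1d rose by 2.52 ± 0.12, 2.76 ± 0.12 and 2.56 ± 0.12, from 42.9 ± 5.15 CPM.

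Hist1h1e and Hist1h1c, the linker genes that resting cells held most of, rose least. Hist1h1e was at 241, 276 and 234 CPM in resting cells of sets 1 to 3, the highest resting level of any member, and at 579, 621 and 570 CPM in dividing germinal center cells and 747, 798 and 751 CPM in dividing plasmablasts. The groups did not overlap, and the log2 fold changes against resting were 1.27 ± 0.08 in germinal center cells and 1.64 ± 0.08 in plasmablasts (edgeR adjusted p = 8.9e-11 and 1.7e-12). Hist1h1c, at 88.4 ± 3.71 CPM in resting cells, rose by 0.68 ± 0.11 in germinal center cells, 1.22 ± 0.11 in plasmablasts and 1.21 ± 0.11 in other cycling cells. H1 genes made up 60.9% ± 2.2 (SD, n = 3) of the histone UMIs of resting cells and 47.5% ± 1.1, 47.7% ± 3.0 and 48.6% ± 1.4 of those of the 3 dividing classes. H2A genes moved the other way, from 11.7% ± 1.3 in resting cells to 27.1% ± 2.2, 25.9% ± 1.7 and 26.0% ± 1.3; neither range overlapped between resting and dividing cells.

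Of the core histones, Hist1h2ae was the most counted H2A gene, at 528, 660 and 570 CPM in dividing germinal center cells against 29.7, 43.8 and 33.0 CPM in resting cells. It rose by 4.05 ± 0.10, 4.08 ± 0.10 and 3.92 ± 0.10 in the 3 dividing classes on the log2 scale. Hist1h2af, a less counted H2A gene at 34.4 ± 7.52 CPM in dividing germinal center cells, rose by 4.83 ± 0.28 there. Hist1h3g, an H3 gene, had the largest estimated rise of the tested members in all 3 classes. It was at 16.2, 12.7 and 15.6 CPM in dividing germinal center cells and at 0.387, 0.535 and 0.206 CPM in resting cells. The log2 fold changes were 5.24 ± 0.26, 5.37 ± 0.27 and 5.59 ± 0.25. The resting value rests on 63 UMIs and is the less certain of the levels. Single resting sums held 0.0886 to 0.724 CPM of Hist1h3g and 0.222 to 2.19 CPM of Hist1h2af. Both genes could pass the filter on low counts through the dividing sums alone, so their folds and ranks are descriptions. The most counted H3 gene, Hist1h3e, rose by 2.08 ± 0.14 in germinal center cells from 35.2 ± 5.83 CPM, and the most counted H4 gene, Hist1h4d, by 2.59 ± 0.12 from 37.3 ± 9.85 CPM. The most counted H2B gene, Hist1h2bj, rose by 3.06 ± 0.15 in germinal center cells and 3.76 ± 0.15 in plasmablasts from 9.23 ± 2.14 CPM.

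A few H2B genes did not follow. Hist1h2bc stood at 7.99, 7.07 and 4.25 CPM in dividing germinal center cells, below its resting 10.8, 9.28 and 9.67 CPM, and at 37.6, 35.1 and 23.2 CPM in dividing plasmablasts. It fell by 0.59 ± 0.18 in germinal center cells (edgeR adjusted p = 0.0078), rose by 1.67 ± 0.14 in plasmablasts (4.2e-09) and was at 0.31 ± 0.18 in other cycling cells, which did not pass (0.15). Hist2h2be fell by 1.33 ± 0.30 in plasmablasts (edgeR adjusted p = 5.8e-04), rose by 0.92 ± 0.20 in other cycling cells (9.2e-04) and did not pass in germinal center cells (-0.19 ± 0.22). Hist3h2ba rose by 0.89 ± 0.28 in germinal center cells (0.0079), and its values of -0.15 ± 0.40 in plasmablasts and -1.01 ± 0.50 in other cycling cells did not pass. Hist1h2bc and Hist2h2be are among the 7 members with a longer end and no stem-loop found in the annotated transcripts. So are Hist1h3g and Hist1h1a, which had some of the largest rises. The search does not tell a missed or unannotated stem-loop from an absent one.

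Genes with both a stem-loop and a longer annotated end held 82.8% ± 1.1 of the histone UMIs of resting cells (SD, n = 3) and 59.6% ± 0.9, 63.6% ± 0.4 and 60.8% ± 1.5 in dividing germinal center cells, dividing plasmablasts and other cycling cells. Genes whose transcripts end at the stem-loop held 6.60% ± 0.72 in resting cells and 10.7% ± 0.7, 11.6% ± 1.6 and 11.2% ± 0.6 in the dividing classes. Hist1h1e, which has a stem-loop and a longer end, weighs heavily in these shares. Under R848 in sets 1 to 3 it held 301, 334 and 274 of 768, 896 and 709 histone CPM in resting cells. In dividing germinal center cells it held 594, 573 and 479 of 3785, 3799 and 3321 CPM. Whether the shares differ without this gene was not tested. Genes and not ends were counted, so the shares do not say which end the molecules had or how far each form was captured. The Hist1 cluster held 94.6% ± 0.1 of histone UMIs in resting cells and 94.1% to 94.8% in the dividing classes.

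Single histone genes differed between dividing germinal center cells and dividing plasmablasts, in no larger a share than genes at large. Of the 51 members, 7 were higher in germinal center cells and 12 in plasmablasts (40.4% and 25.8% of all genes tested), and all but 1, Hist2h2be, had their direction in 3 of 3 sets. DESeq2 called 5 and 16, and without set 1 edgeR called 2 and 8. The median log2 difference was -0.12 over the members and 0.17 over all genes, and DESeq2's scaling moved the latter to 0.06; the same change of scaling moved the median of all genes from -0.09 to 0.01 in plasmablasts against resting cells and from -0.16 to -0.05 in plasmablasts against other cycling cells. For the total itself no direction is given. Histone UMIs per 10000 gene UMIs were 36.3 to 48.2 in germinal center cells and 30.8 to 37.8 in plasmablasts. In TMM-scaled CPM the totals of sets 1 to 3 under R848 were 3785, 3799 and 3321 in germinal center cells, below the 4355, 4224 and 4256 in plasmablasts, while under IL-4+R848 they were 3798, 4307 and 4103 against 3817, 4144 and 3762, higher in germinal center cells in sets 2 and 3.

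The largest difference was that of Hist1h2bc, lower in germinal center cells by 2.26 ± 0.19 on the log2 scale (edgeR adjusted p = 5.9e-09), from the set values given above, which do not overlap. Hist1h2bg, another H2B gene, was at 10.3, 6.59 and 8.83 CPM in germinal center cells and 25.6, 18.1 and 18.6 CPM in plasmablasts, a difference of -1.26 ± 0.18 (4.8e-06). Hist1h4i, an H4 gene, was at 58.7, 62.1 and 56.3 CPM against 102, 97.7 and 86.7 CPM in plasmablasts, a difference of -0.70 ± 0.10 (4.6e-06), again with no overlap. Hist1h2bj (-0.70 ± 0.14), Hist1h2ac (-0.60 ± 0.11), Hist1h1c (-0.54 ± 0.11), Hist2h2bb (-0.54 ± 0.16), Hist1h2bn (-0.50 ± 0.20) and Hist1h1e (-0.38 ± 0.08) were lower too, as were 3 genes with class means under 5 CPM, Hist1h2bp, Hist2h2aa1 and Hist1h4n. H2B genes, 15 of the 51 members tested, held 6 of these 12 calls and 2 of the 7 in the other direction, and H2B made up 7.78% ± 0.57 of histone UMIs in germinal center cells and 10.1% ± 1.1 in plasmablasts.

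In the other direction, Hist4h4 was at 19.5, 27.8 and 35.8 CPM in germinal center cells and 11.7, 11.8 and 13.8 CPM in plasmablasts, a difference of 1.10 ± 0.17 (edgeR adjusted p = 1.4e-05), and at 33.8 ± 7.21 CPM in other cycling cells. Hist2h2ac, an H2A gene of the Hist2 cluster, was at 69.2, 73.6 and 65.9 CPM against 46.2, 55.0 and 47.5 CPM, a difference of 0.50 ± 0.11 (4.3e-04). Hist1h1a (0.42 ± 0.15), Hist1h3d (0.63 ± 0.24), Hist1h2af (0.74 ± 0.27), Hist3h2ba (1.04 ± 0.42) and Hist2h2be (1.14 ± 0.37) completed the 7. With DESeq2 and its own scaling, Hist1h1a and Hist1h2af did not pass (DESeq2 adjusted p = 0.058 and 0.069).

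**Figure D2:**
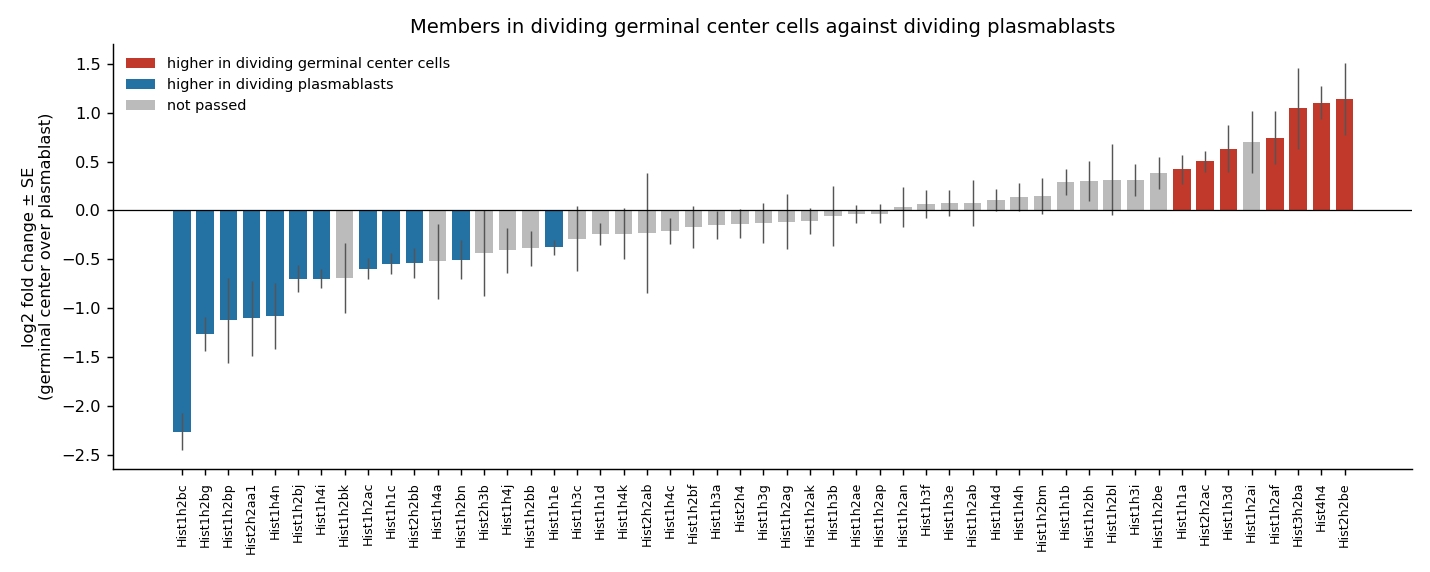
Log2 fold change of each tested histone gene in dividing germinal center cells over dividing plasmablasts, as bars with SE from the model of all sums; colored bars passed the adjusted p under 0.05. Hist1h2bc stands apart at -2.26, while Hist4h4 and Hist2h2be lead the other side at 1.10 and 1.14.

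Cell cycle make-up was compared beside these calls. By the log2 ratio of UMIs of 30 S phase genes to 30 G2M genes, each plus 1, a cell was called S-rich above 1, G2M-rich below -1 and middle in between. Middle cells made up 43.0% ± 3.9 of dividing plasmablasts and 29.3% ± 2.5 of dividing germinal center cells under R848 (SD, n = 3), but 32.9% ± 2.4 and 30.7% ± 6.3 under IL-4+R848, ranges that overlap. G2M-rich cells were 48.6% ± 5.3 of other cycling cells under R848 and 50.8% ± 4.0 under IL-4+R848. With middle cells alone, 10 members differed between germinal center cells and plasmablasts, 7 higher and 3 lower, of which 7 were among the 19 above; 19.2% of 10145 genes were called higher and 19.4% lower in that fit. Sums of under 20 cells were left out of it, so that under IL-4+R848 plasmablasts had a sum in set 1 only and germinal center cells in sets 1 and 2. Hist1h2bc (-1.51), Hist1h2bg (-0.93), Hist1h4i (-0.54), Hist4h4 (0.79) and Hist1h1a (0.92) passed there in the same direction. Hist1h2bj (-0.23) and Hist2h2bb (-0.25) did not pass, and the estimates for Hist1h1e and Hist1h2bp changed sign, to 0.07 and 0.09. Whether phase make-up or the smaller number of sums accounts for these lost calls was not tested.

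Other cycling B cells differed from dividing germinal center cells in 7 members, 2 higher and 5 lower in the germinal center (24.1% and 25.6% of all genes). Hist1h1c was at 177, 211 and 217 CPM in other cycling cells and 138, 157 and 123 CPM in germinal center cells, a difference of -0.53 ± 0.11 (edgeR adjusted p = 5.6e-04) with no overlap. Hist2h2be (-1.11 ± 0.26), Hist1h2bc (-0.90 ± 0.23), Hist2h2aa1 and Hist1h2ag were the other 4 lower, and Hist3h2ba (1.90 ± 0.50) and Hist1h4j the higher ones; without set 1 or set 2 the calls numbered 4. Against other cycling cells, dividing plasmablasts were higher in 8 members and lower in 6 (27.0% and 40.1% of all genes), and DESeq2 called 11 and 5. Hist1h2bc (1.36 ± 0.18), Hist1h4i (0.86 ± 0.10), Hist1h2bg (0.84 ± 0.18) and Hist1h2bj (0.68 ± 0.14) were among the higher, and Hist2h2be (-2.25 ± 0.33), Hist4h4 (-1.39 ± 0.17) and Hist1h2af (-1.14 ± 0.27) led the lower. These comparisons share sums with those above and are not separate evidence.

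Histone levels followed the position of dividing cells between S and G2M. Over all dividing cells, histone UMIs per 10000 gene UMIs were 24.7 ± 2.9 in the bin with the lowest S to G2M ratio (SD, n = 3), 44.6 ± 7.4, 49.3 ± 1.1, 51.3 ± 2.2 and 46.7 ± 1.9 in the next 4 and 20.1 ± 5.9 in the bin with the highest. In germinal center cells the highest bin mean was 63.3 ± 5.3, at a log2 ratio of 0 to 1, and the end bins stood at 20.7 ± 3.8 and 17.3 ± 5.6. In other cycling cells the same bin reached 72.5 ± 6.8. Plasmablasts varied less, between 30.2 ± 7.5 and 42.0 ± 6.8 over the first 5 bins, with 22.4 ± 7.8 in the last, where a set held as few as 18 cells.

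**Figure D3:**
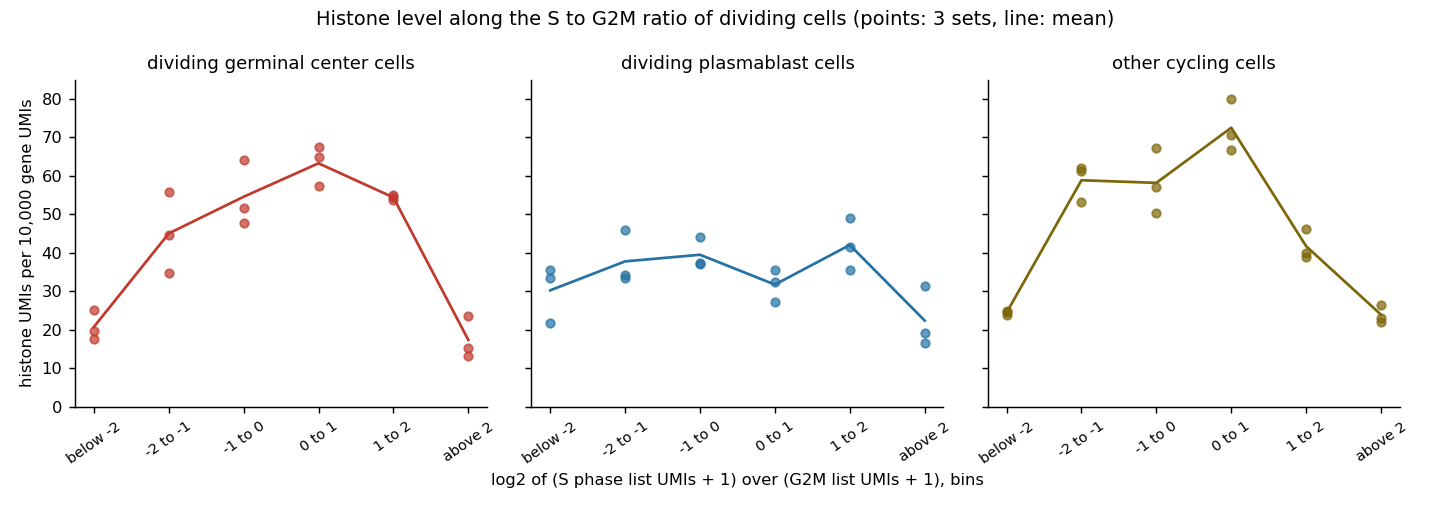
Histone UMIs per 10000 gene UMIs along bins of the log2 ratio of S phase to G2M list UMIs, from G2M-rich cells on the left to S-rich cells on the right, with a point for each of 3 sets and a line through their mean. Germinal center and other cycling cells peak in the bin from 0 to 1, at 63.3 and 72.5, and plasmablasts stay between 22.4 and 42.0.

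In sums by phase, which pool the 3 dividing classes, 49 members were tested. Median S phase and G2M list UMIs per cell were 74 and 67 in germinal center cells. They were 33 and 55.5 in plasmablasts and 23 and 56 in other cycling cells. The fit had no term for class, and the part of class mix in the orders below was not tested. Middle cells had 17 members higher and none lower than S-rich cells (4.53% of 9939 genes called higher and 3.95% lower; 35 members at an unadjusted p under 0.05), and 17 higher and 1 lower than G2M-rich cells (15.4% of genes higher and 17.0% lower). S-rich against G2M-rich cells gave 4 higher and 13 lower (20.1% and 20.9% of genes). Without set 1 or set 2 there were 7 and 8 between middle and S-rich cells, and 8 and 6 between S-rich and G2M-rich cells. The 4 higher in S-rich cells were 3 linker genes and Hist2h2ac. Hist1h1a was at 201, 202 and 310 CPM in S-rich cells, 249, 272 and 305 CPM in middle cells and 77.1, 107 and 104 CPM in G2M-rich cells, and S-rich cells were above G2M-rich cells by 1.29 ± 0.15 (edgeR adjusted p = 8.0e-06), in 3 of 3 sets. Hist1h1b (0.65 ± 0.11) and Hist1h1d (0.38 ± 0.11) had the same order, with the lowest level in G2M-rich cells.

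Several core genes had the opposite order of the ends. Hist1h2af was at 20.7 to 23.0 CPM in S-rich, 47.0, 42.2 and 49.1 CPM in middle and 32.4, 38.7 and 25.7 CPM in G2M-rich cells, so the S-rich values lay below all others; middle cells were above S-rich cells by 1.11 ± 0.12 (edgeR adjusted p = 1.8e-05). Hist2h2bb was above its S-rich level by 0.99 ± 0.16 in middle cells and Hist1h2ag by 1.13 ± 0.32. Hist1h2bc was highest in G2M-rich cells, at 30.8, 23.8 and 18.7 CPM against 16.9, 14.5 and 12.8 CPM in middle and 10.0, 9.03 and 7.45 CPM in S-rich cells, and S-rich cells were below by 1.49 ± 0.24 (1.2e-04). In germinal center cells alone its difference between middle and G2M-rich cells was 0.01, so this step was not seen within that class. Hist2h2be (-0.99 ± 0.29) and Hist1h2bb (-0.72 ± 0.22) were also lower in S-rich than in G2M-rich cells.

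Resting cells were split by the same marker gates into 270 germinal center cells, 1172 plasmablasts and 27612 others, in a separate fit whose scaling gives dividing cells slightly other CPM. Within each lineage the dividing cells stayed higher: 42 of 47 tested members rose in germinal center cells, 41 in plasmablasts and 45 in other B cells, with none lower (18.0%, 20.0% and 26.4% of 10545 genes called higher and 11.6%, 30.5% and 27.2% lower). Resting germinal center cells held no UMI of Hist1h2ag, Hist1h3b, Hist1h4j or Hist1h4k, so no fold is given for these. After TMM scaling, resting plasmablasts had 26 members higher and 2 lower than other resting cells (33.6% and 37.1% of all genes). Resting germinal center cells had none higher and 9 lower, the latter near the share of all genes (15.2% higher and 18.0% lower). There 12 members had an unadjusted p under 0.05, DESeq2 called 1 and 9, and without set 1 edgeR called 4. Unscaled median histone UMIs per cell were 11 in resting plasmablasts, 3 in resting germinal center cells and 3 in the others. Depth differs between them, with median gene UMIs of 16850.5 in resting plasmablasts, 9235 in resting germinal center cells and 4887 in the others, and the resting gate asks for no Mki67 or Top2a UMI at any depth; the part of depth in these counts was not tested.

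Linker genes were among those that differed between resting classes. Hist1h1a and Hist1h1b, low in resting cells outside the plasmablast gate, were higher in resting plasmablasts than in other resting cells by 2.25 ± 0.20 and 1.85 ± 0.19 on the log2 scale (edgeR adjusted p = 7.7e-11 and 2.0e-09). Hist1h1c was at 201, 257 and 216 CPM in resting plasmablasts, 39.3, 54.3 and 47.0 CPM in resting germinal center cells and 71.9, 78.4 and 70.3 CPM in other resting cells, 3 ranges that do not overlap. Resting plasmablasts exceeded other resting cells by 1.61 ± 0.12 on the log2 scale (edgeR adjusted p = 4.0e-12), and resting germinal center cells fell below them by 0.64 ± 0.14 (8.7e-04). Between dividing and resting plasmablasts the difference of Hist1h1c was -0.25 ± 0.12, which did not pass (0.086). Hist1h1e stood at 453, 593 and 442 CPM in resting plasmablasts, 127, 150 and 144 CPM in resting germinal center cells and 210, 241 and 200 CPM in the others; dividing plasmablasts exceeded resting ones by only 0.53 ± 0.09 (1.6e-05). Hist1h1a, at 28.7 ± 4.81 CPM in resting plasmablasts, rose by 2.42 ± 0.19 in dividing ones (1.8e-11).

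**Figure D4:**
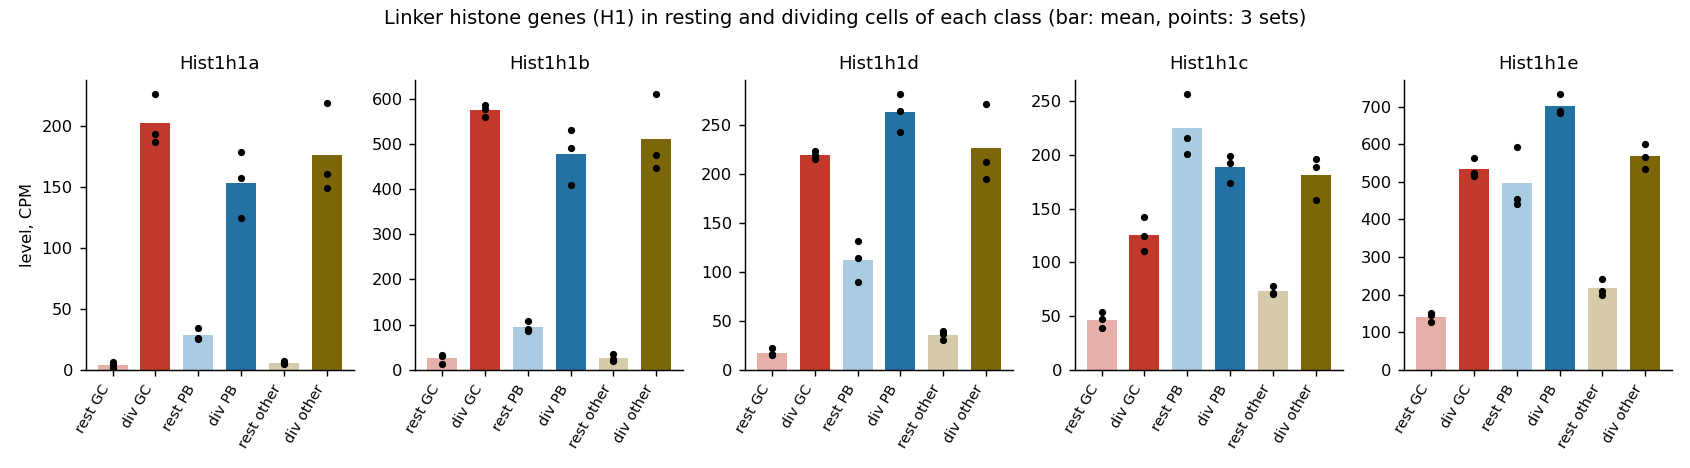
Level in CPM of 5 linker histone genes in resting and dividing germinal center cells (GC), plasmablasts (PB) and other B cells, as bars of the mean with a point for each of 3 sets. All 5 genes are higher in resting plasmablasts than in other resting cells; Hist1h1c, at 225 CPM there, did not pass against dividing plasmablasts, while Hist1h1a, at 28.7 CPM, stays far below its dividing level.

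Among core genes, Hist1h2ac (2.09 ± 0.13), Hist1h2bg (2.14 ± 0.20), Hist1h2bn (2.70 ± 0.35) and Hist1h3g (3.02 ± 0.60) were higher in resting plasmablasts than in other resting cells. Hist1h2ac was at 38.2, 41.6 and 47.7 CPM there against 8.45, 11.3 and 10.5 CPM in other resting and 5.57, 1.29 and 2.71 CPM in resting germinal center cells. Hist1h4d did not pass between them, at 33.5 ± 9.76 CPM in resting plasmablasts and 34.7 ± 9.23 CPM in other resting cells, and rose by 2.56 ± 0.15 in dividing plasmablasts. The 2 members lower in resting plasmablasts were Hist2h2be (-1.04 ± 0.36) and Hist2h2ac (-0.53 ± 0.19).

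In 8 places an H2A and an H2B gene lie head to head with overlapping promoter windows, and partners could differ in level. Hist1h2ae and Hist1h2bg, whose windows share 279 bases (sequence above), were at 586 ± 67.4 and 8.58 ± 1.88 CPM in dividing germinal center cells; the former rose by 4.05 and the latter by 0.97 against resting cells. Against plasmablasts the differences were -0.03 ± 0.09 for Hist1h2ae, which did not pass, and -1.26 ± 0.18 for Hist1h2bg. For Hist1h2ag and Hist1h2bj, sharing 252 bases, the levels were 2.63 ± 0.668 and 76.6 ± 4.24 CPM, and both rose, by 3.40 and 3.06. The test did not compare partners with each other.

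The comparison of IL-4+R848 with R848 asked whether the cytokine changed histone levels within a class. In the 3 dividing classes no member passed: 0 of 44 tested in germinal center cells, 0 of 43 in plasmablasts and 0 of 41 in other cycling cells by edgeR, with 3 members in each at an unadjusted p under 0.05, while 0.182%, 0% and 0.547% of all genes were called higher and 0.0641%, 0.0219% and 0.156% lower. DESeq2 also called none. Hist1h1e was at 594, 573 and 479 CPM under R848 and 565, 669 and 660 CPM under IL-4+R848 in dividing germinal center cells of sets 1 to 3, overlapping ranges. Summed histone UMIs per 10000 gene UMIs were 40.9 ± 4.1 under R848 and 44.8 ± 3.1 under IL-4+R848 in germinal center cells, 36.7 ± 0.9 and 32.9 ± 2.3 in plasmablasts, and 45.5 ± 0.6 and 38.2 ± 8.2 in other cycling cells (SD, n = 3). A call that misses the threshold with 3 sets does not show that the levels are equal.

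In resting cells, 2 of 49 members passed, about the share of all genes called lower (of 12052 genes, 5.17% were called higher and 4.08% lower). Both were linker genes lower under IL-4. Summed histone levels of resting cells, which include these genes, were 768, 896 and 709 CPM under R848 in sets 1 to 3. Under IL-4+R848 they were 562, 681 and 573 CPM, with no overlap, and the total was not tested. Hist1h1c was at 104, 109 and 100.01 CPM under R848 and 67.0, 75.9 and 73.7 CPM under IL-4+R848, with no overlap and a log2 fold change of -0.53 ± 0.06 (edgeR adjusted p = 0.0032). Hist1h1e was at 301, 334 and 274 CPM against 182, 218 and 194 CPM, also without overlap, a change of -0.61 ± 0.10 (0.0093). Without set 1 or set 3 the call of Hist1h1e was lost (adjusted p = 0.084 and 0.055), leaving 1 call; DESeq2 gave 5 calls and the fit with set as a block gave 5, all lower. Hist1h1b (-0.66 ± 0.18, 0.061), Hist1h1a (-0.53 ± 0.13, 0.052) and Hist1h1d (-0.42 ± 0.12, 0.079) were on the same side without passing. In resting cells outside the germinal center and plasmablast gates, Hist1h1e (-0.60 ± 0.09), Hist1h1c (-0.48 ± 0.08) and Hist2h4 (-0.44 ± 0.11) were lower under IL-4 (of 11856 genes, 6.17% were called higher and 5.79% lower). In resting plasmablasts none of 26 members passed by edgeR or DESeq2, with 3 at an unadjusted p under 0.05 (0.0124% of all genes higher and 0.0371% lower).

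**Figure D5:**
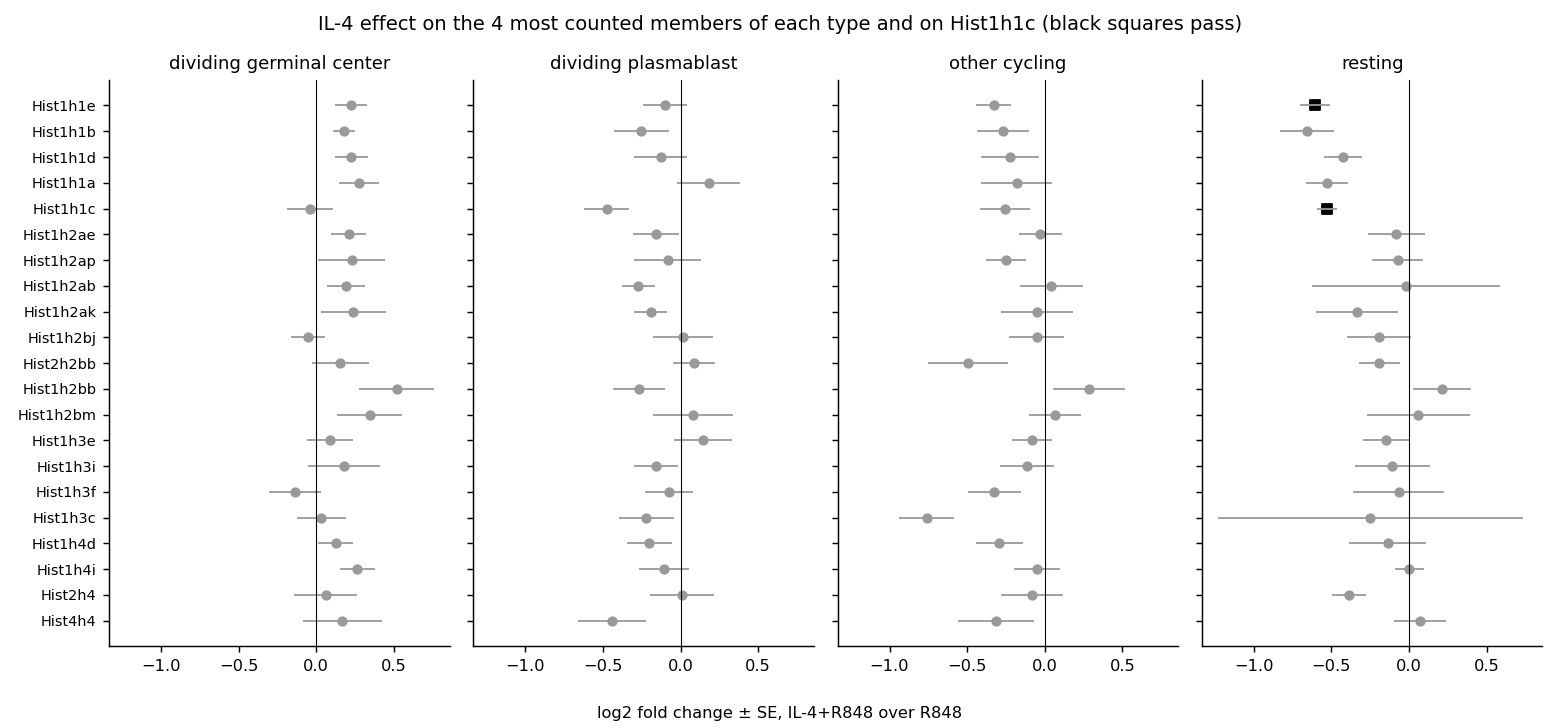
Log2 fold change ± SE of IL-4+R848 over R848 in each class, for the 4 most counted members of each histone type and Hist1h1c; black squares passed the adjusted p under 0.05. The squares are those of Hist1h1e and Hist1h1c in resting cells, at -0.61 and -0.53.

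The IL-4 effect on Hist1h1e in dividing germinal center cells exceeded that in resting cells by 0.81 ± 0.16 on the log2 scale (edgeR adjusted p = 0.034, an interaction test), with that direction in 3 of 3 sets; it was the 1 member of 51 to pass (0.142% of all genes were called higher and 0.275% lower). The call was lost without any 1 of the sets, with adjusted p between 0.21 and 0.42, and with no block for set (0.050).

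Most genes known to work with these histones were also higher in dividing cells. The shares of all genes called in the same comparisons are given above beside those of the members. Mcm2 and Chaf1b of the chaperone list also belong to the S phase list. Of 24 histone chaperone and chromatin assembly genes, 21 were higher in dividing germinal center than in resting cells, 18 higher and 2 lower in dividing plasmablasts, and 20 higher in other cycling cells; their median log2 changes were 1.37, 0.64 and 0.96. Asf1b, a chaperone that hands H3 and H4 to the replication fork, was at 172 ± 10.3 CPM in dividing germinal center cells, 81.3 ± 4.67 CPM in dividing plasmablasts and 6.07 ± 0.0317 CPM in resting cells. Of 16 tested genes of histone mRNA transcription and 3′ end processing, 13 were higher and 1 lower in germinal center cells, 10 higher and 4 lower in plasmablasts, and 12 higher and 2 lower in other cycling cells. Slbp, which binds the stem-loop printed above and belongs to the S phase list used for the phase call, was at 315 ± 2.42 CPM in germinal center cells, 189 ± 22.1 CPM in plasmablasts and 64.7 ± 2.71 CPM in resting cells. Between the dividing classes, 21 of 24 chaperone genes and 14 of 16 processing genes were higher in germinal center cells than in plasmablasts, with 0 and 1 lower, beside the 7 and 12 of the histone members.

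Histone variants outside the clusters are mostly made independently of DNA replication. For their counts too, the shares of all genes called are those given above with the members. Of 10 tested, 8 were higher and 1 lower in dividing germinal center than in resting cells, 7 and 2 in plasmablasts, and 6 and 1 in other cycling cells; between dividing germinal center cells and plasmablasts, 7 were higher in the former and 3 in the latter. H2afz was at 2516 ± 243 CPM and H2afx at 893 ± 49.5 CPM in germinal center cells, against 223 ± 13.5 and 61.3 ± 1.56 CPM in resting cells. The linker variant H1fx was at 251 ± 38.4 CPM in germinal center cells and 26.7 ± 13.6 CPM in plasmablasts, while H1f0, a linker variant known from cells that have stopped dividing, was at 38.3 ± 5.80 and 231 ± 44.4 CPM. The differences between germinal center cells and plasmablasts were 3.28 ± 0.28 for H1fx and -2.60 ± 0.22 for H1f0 (edgeR adjusted p = 7.3e-09 and 7.0e-09). Over the 24 sums of set, treatment and class, the genes whose level ran most like the summed histone CPM were Usp47 (Spearman's rho 0.87), Hmgn5 (0.83), Sapcd2 (0.81), Ptgr1 (0.81) and Ube2e3 (0.81); the sums share libraries and classes, and the values are descriptions.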

How the data were processed

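Per the file headers, the authors deposited UMI counts of 32285 genes and 14 antibody tags for each barcode of 3 libraries; the submitters' processing notes name Cell Ranger 6.0.1, Seurat 4.1.3 and the build mm10, and other steps are not given in the sources used here. Cells needed at least 500 genes, under 10% mitochondrial UMIs, and a treatment hashtag with at least 64 UMIs and 4 times the other; cells of other lineages were removed. Plasmablasts had at least 128 UMIs of 12 plasmablast genes, and germinal center cells at least 10 UMIs of 12 germinal center genes below that. These cutoffs were set after the data were seen; 248 cells held 5 to 19 germinal center list UMIs, 351 held 64 to 255 plasmablast list UMIs, and 985 dividing cells lay near the dividing cutoff. No doublet caller was run beyond removing cells with both hashtags, and 555 plasmablast-gated cells also reached the germinal center score.

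Counts were summed by set, treatment and class into 24 sums of 1397592 to 32356197 gene UMIs and tested with edgeR 4.0.16 (R 4.3.3, limma 3.58.1; TMM scaling, filterByExpr, quasi-likelihood F test, Benjamini-Hochberg adjustment over all genes tested). Class and phase fits had set as a block; IL-4 fits within a class did not. The SE is the log2 fold change over the square root of F. DESeq2 1.42.0 was an alternative. The fit of dividing germinal center against resting cells and the IL-4 fit in dividing germinal center cells were tested on simulated data. The former recovered 72% of 1.5-fold and 98% of 2-fold changes, with 5.26% and 3.92% of calls false. The latter recovered 23.5% and 96.5%, with 6.0% and 7.21% of calls false, so it would miss most changes of 1.5-fold. Figures were drawn with matplotlib 3.10.9, and cells were handled in SciPy 1.17.1 and pandas 2.3.3 (NumPy 2.4.6, Python 3.11.15). Set numbers pair the treatments, since a set is 1 library holding both; same-set deviations correlated at -0.12 to 0.15, against up to 0.22 between other pairs.

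The members, gene lists and comparisons were chosen with earlier results of these data known. Named members are the 4 most counted of each type and, per comparison, up to 3 passing members with the largest rise and fall moving alike in every set, and from each list up to 3 genes. Members called in a comparison outside this rule, and Slbp, were named after their values were seen, as were the splits of resting cells and the middle phase comparisons.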

Additional observations from a re-analysis of the deposited data

Results flagged for a closer look

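The IL-4 effect on Hist1h1e differed between dividing germinal center cells and resting cells by a test of the difference itself, with an interaction of 0.81 on the log2 scale (edgeR adjusted p = 0.034, 3 of 3 sets). Hist1h1e stood at 594, 573 and 479 CPM under R848 and 565, 669 and 660 CPM under IL-4+R848 in dividing germinal center cells, and at 301, 334 and 274 CPM against 182, 218 and 194 CPM in resting cells. DESeq2 gave 0.83 (adjusted p = 7.1e-05), and the call was lost without set 1, 2 or 3 (adjusted p = 0.21, 0.42 and 0.29).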

How the results depend on the processing

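The rise of the members in dividing cells kept its count of calls within 1.5 times under every alternative run: leaving out a set gave 43 to 48 calls in germinal center cells, 47 to 51 in plasmablasts and 45 to 50 in other cycling cells. Calls between germinal center cells and plasmablasts ranged from 10 to 20 with a set left out and numbered 10 with middle phase cells only. Between germinal center and other cycling cells they ranged from 4 to 7, with 4 without a filter on low counts and 3 with middle phase cells only. For IL-4 in resting cells they ranged from 1 to 3, with 5 by DESeq2, 4 without a filter and 5 with the replicate block; in resting cells outside both gates they stayed at 2 with a set left out, with 6 without a filter and 5 with the replicate block. For IL-4 in other cycling cells, 1 member passed without a filter. The interaction call numbered 0 with any set left out, 0 with no replicate block, 0 with the stricter hashtag and 0 with middle phase cells only. S-rich against G2M-rich calls ranged from 6 to 17 with a set left out, with 10 at 5 or more dividing UMIs and 10 in germinal center cells only; middle against S-rich calls ranged from 7 to 22, and middle against G2M-rich calls numbered 11 at 2 or more dividing UMIs. Calls between resting germinal center and other resting cells ranged from 4 to 9. The middle phase and germinal center only settings, and the comparisons of split resting cells, were chosen after seeing the data. The middle phase setting also has fewer sums, with IL-4+R848 plasmablasts in 1 set and germinal center cells in 2. The cause of these changes was not tested.

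Estimates that changed sign were Hist1h1e (0.068) and Hist1h2bp (0.091) between germinal center cells and plasmablasts, Hist1h1e (-0.13) and Hist2h2bb (-0.15) between plasmablasts and other cycling cells, and Hist2h2aa1 (0.46) between germinal center and other cycling cells, all with middle phase cells only; Hist1h2bc (0.0071) between middle and G2M-rich cells in germinal center cells only; and Hist1h2bk between resting plasmablasts and other resting cells, at -0.43 without set 1 within a range up to 3.04 when a set was left out. The replicate block changed no other count of calls by more than 1.5 times. Members with few UMIs in resting cells, such as Hist1h3g, limit the precision of their folds.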
